A study of Mus musculus with 32 samples.

Results

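The synapsin genes Syn1, Syn2 and Syn3, and Timp3, a gene that lies inside Syn3, were followed in mouse brain from mid-gestation to birth. These 4 genes, of 55291 gene symbols in the count tables, were found by symbol. They were chosen by the measured difference of Syn3, which was lower in Dhcr7 knockout brains on the day of birth and at no other stage, so that difference is described here and supports nothing further. All 4 passed the filter on low counts in every comparison.

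Synapsins are phosphoproteins on the cytoplasmic face of synaptic vesicles. They hold vesicles in a reserve pool by tying them to each other and to actin. Phosphorylation by protein kinase A and CaM kinases sets the vesicles free, and MAP kinases and Cdk5 also phosphorylate synapsins. Synapsin I and II are the abundant forms of mature terminals, and synapsin III is known mainly from immature neurons, where it acts in neurite growth. Timp3 encodes a secreted inhibitor of metalloproteinases that binds to the extracellular matrix. The product of Dhcr7 makes cholesterol from its immediate precursor, and mutations of the human gene cause Smith-Lemli-Opitz syndrome.

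Messenger RNA was sequenced from 32 brains of the strain C57BL/6J. They were wild type (Dhcr7+/+, WT) or knockout (Dhcr7-/-, KO) and came from 3 embryonic stages, named E12.5, E14.5 and E16.5 for the day of gestation, or from newborns (PND0). Each of the 8 groups held 4 libraries. How the knockout allele was made, the litter and the sex are not given in the sources used here, and nothing states which brains share a dam, so p-values measure the spread between these libraries. Levels are counts scaled to a common library total (CPM), with totals scaled by TMM, a method that equalizes the bulk of genes between libraries.

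Libraries held 13.87 to 28.32 M counts, so that 3 counts, the limit that a count of 0 allows, came to 0.106 to 0.216 CPM. All values of the 4 members were far above that limit, and the lowest was 44 counts for Syn3 in E12.5 KO replicate 1. That library also had 5.64% of its counts in a ribosomal RNA gene, the highest share of all. Dhcr7 itself was lower in every KO library than in every WT library of its stage, at 16.2 to 32.5% of the WT mean. Neuron markers were present throughout, with a summed level of 3042 CPM or more in each library of E12.5 and 6643 CPM or more at PND0. At PND0 each genotype had 2 libraries with Ddx3y, a Y-linked gene, above 1 CPM, and at E14.5 each had 3. At E12.5 the numbers were 1 in WT and 2 in KO, and at E16.5 they were 2 in WT and 1 in KO. These numbers bear on Syn1, which is X-linked.

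Each synapsin gene holds a gene of the TIMP family within its span, on the opposite strand, in GENCODE M21 on build GRCm38. Syn1 (ENSMUSG00000037217.15, chrX:20860511-20921004, minus strand) has Timp1 in intron 5, which is 41168 bp long. Syn2 (ENSMUSG00000009394.13, chr6:115134902-115282006, plus strand) has Timp4, whose last exon overlaps exons of Syn2 by 90 nt. Syn3 (ENSMUSG00000059602.14, chr10:86055125-86498896, minus strand) is the longest of the set at 443772 bp. Timp3 (ENSMUSG00000020044.13, chr10:86300372-86349506, plus strand) lies in intron 6 of both coding transcripts of Syn3 that span it. That intron is 216502 bp long in the transcript of 14 exons and 56899 bp long in the transcript of 7 exons.

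**Figure D1:**
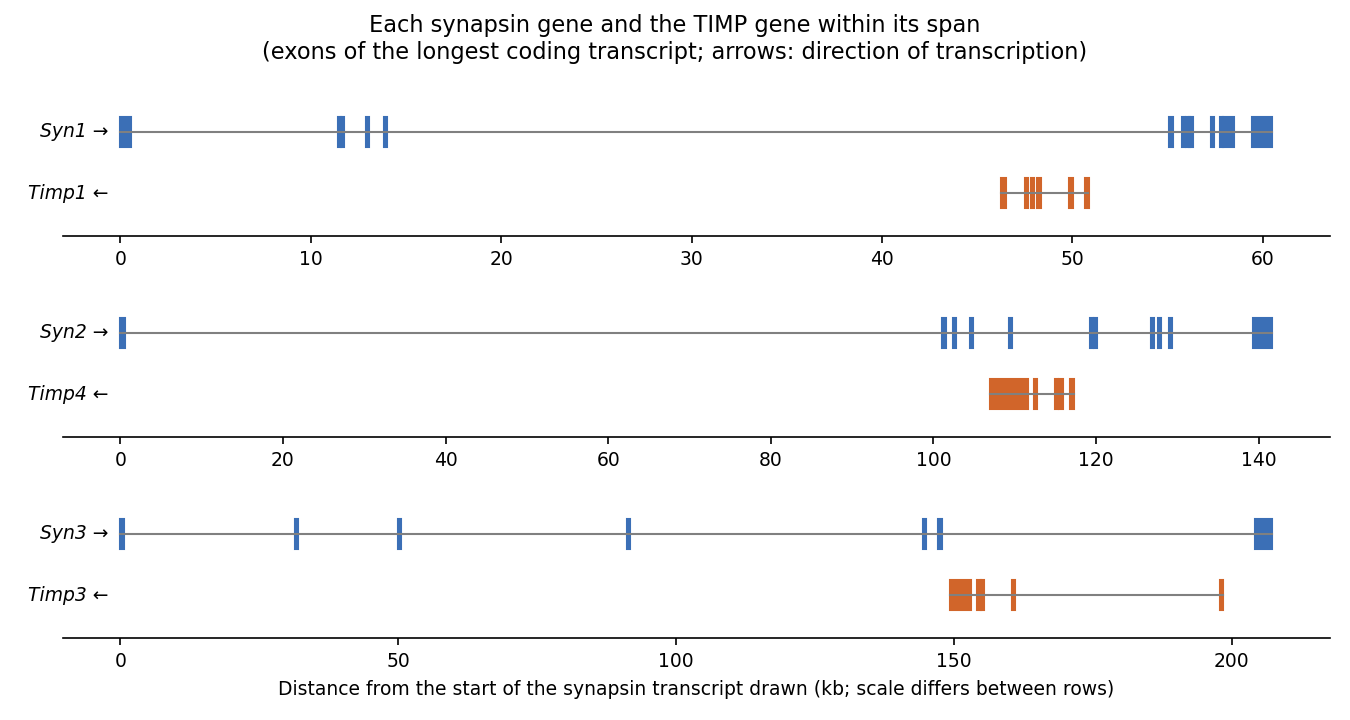
Exons (boxes) of the longest coding transcript of each synapsin gene (blue) and of the TIMP gene within its span (orange), in kb from the start of the synapsin transcript drawn; narrow exons are widened to stay visible and the scale differs between rows. Timp1 and Timp3 lie within 1 intron, and Timp4 is spread over introns and exons of Syn2.

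Reads from Syn3 and Timp3 can be confused over 1 stretch. A retained-intron transcript of Syn3 overlaps the last exon of Timp3 (chr10:86345705-86349506) by 1733 nt, which is 45.6% of that exon, 14.11% of all exonic bases of Syn3 and 21.28% of those of Timp3. The strand setting of the counting is not given in the sources used here, so reads from this stretch could have been given to neither gene or to the wrong one.

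The upstream sequences of Syn1 and Syn2 are shown because these genes rose together over the stages and because Syn1 is a classical target of the repressor REST, which keeps neuronal genes off in other cells. Capitals mark TTCAGCACC (the left part of the REST site) and TGACGTCA (the cyclic AMP response element) in Syn1, and GGGCGG (the GC box) in Syn2. Sequences are from RefSeq on GRCm38.p6, 5′ to 3′ on the strand of the gene, for chrX:20921019-20921168 (minus strand, positions -250 to -101 from the start site) and chr6:115134752-115134901 (plus strand, positions -150 to -1).
Syn1: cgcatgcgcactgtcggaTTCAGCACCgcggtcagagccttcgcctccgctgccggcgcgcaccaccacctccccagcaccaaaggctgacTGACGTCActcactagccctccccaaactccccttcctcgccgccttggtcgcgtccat
Syn2: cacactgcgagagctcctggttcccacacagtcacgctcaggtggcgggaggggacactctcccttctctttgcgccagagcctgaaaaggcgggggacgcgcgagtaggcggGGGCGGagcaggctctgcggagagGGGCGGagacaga
The motifs were searched on both strands in the window from 250 bases before to 50 after each start site. TTCAGCACC began at position -232 of Syn1 and was found in 0.372% of 32544 such windows. TGACGTCA began at -159 and was found in 1.801%. GGGCGG, which 35.884% of windows hold, began at -37 and -13 of Syn2 and, on the other strand, at 20. In Timp3 it began at -15 and 14 on the other strand, and TATAA, found in 24.822% of windows, began at -44. A match is a run of letters and does not show that a factor binds there. Of the 4 members, Syn1, Syn2 and Timp3 matched the RefSeq table by symbol, and Syn3 did not.

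Syn1 rose from E12.5 to PND0 in both genotypes. In WT the libraries held 24.83, 34.85, 43.05 and 41.17 CPM (E12.5) and 115.4, 118.1, 111.0 and 118.8 CPM (E14.5). They went on with 136.8, 116.5, 92.59 and 99.13 CPM (E16.5) and 301.6, 310.1, 306.3 and 263.0 CPM (PND0). The E12.5 libraries were all below those of E14.5, those of E14.5 and E16.5 overlapped, and the PND0 libraries were all above the rest. In KO the libraries held 27.82, 52.3, 43.16 and 46.91 CPM (E12.5), 118.1, 126.8, 105.7 and 111.3 CPM (E14.5), 138.9, 132.9, 147.2 and 111.8 CPM (E16.5), and 317.1, 319.1, 279.1 and 285.6 CPM (PND0). The stages overlapped in the same way as in WT. From E14.5 to E16.5 the mean went from 115.5 to 132.7 CPM in KO and from 115.8 to 111.3 CPM in WT. The mean at PND0 was 8.21 times that at E12.5 in WT and 7.06 times in KO.

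Syn2 rose at every step in both genotypes. In WT the libraries held 13.32, 11.82, 24.29 and 14.79 CPM (E12.5), 52.41, 49.71, 46.01 and 48.35 CPM (E14.5), 84.91, 86.09, 59.42 and 55.31 CPM (E16.5), and 175.5, 165.1, 181.7 and 144.2 CPM (PND0). In KO the libraries held 10.56, 18.13, 16.06 and 21.82 CPM (E12.5), 50.31, 54.76, 49.28 and 49.81 CPM (E14.5), 85.48, 88.93, 90.75 and 67.31 CPM (E16.5), and 159.1, 161.9, 143.2 and 134.1 CPM (PND0). No library of a stage overlapped with those of the next stage in either genotype. The mean rose 10.4-fold in WT and 8.99-fold in KO from E12.5 to PND0.

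Syn3 had a different course. In WT the libraries held 8.076, 7.677, 12.78 and 8.612 CPM (E12.5), 20.58, 24.48, 14.37 and 18.09 CPM (E14.5), 16.97, 20.47, 20.44 and 18.37 CPM (E16.5), and 31.79, 27.89, 56.6 and 27.27 CPM (PND0). The WT libraries thus rose, stayed in 1 range and rose again, and WT replicate 3 at PND0 stood far above the other 3. In KO the libraries held 3.344, 11.15, 11.41 and 14.06 CPM (E12.5), 16.87, 18.81, 20.67 and 17.78 CPM (E14.5), 27.27, 20.61, 28.75 and 25.46 CPM (E16.5), and 9.337, 13.83, 10.97 and 10.13 CPM (PND0). The KO libraries of PND0 lay below those of E14.5 and E16.5 and within the range of E12.5. The mean at PND0 was 3.87 times that at E12.5 in WT and 1.11 times in KO.

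Timp3 lay between 17.48 and 32 CPM before birth in all libraries but 1 and was higher at PND0. In WT the libraries held 52.44, 26.63, 23.02 and 22.49 CPM (E12.5), 23.48, 25.76, 24.71 and 24.62 CPM (E14.5), 24.0, 30.24, 25.05 and 30.17 CPM (E16.5), and 63.63, 54.57, 79.4 and 65.8 CPM (PND0). In KO the libraries held 17.48, 20.41, 18.41 and 29.82 CPM (E12.5), 25.99, 24.82, 28.32 and 22.62 CPM (E14.5), 25.58, 21.99, 32 and 31.79 CPM (E16.5), and 43.75, 53.33, 70.77 and 31.21 CPM (PND0). Every WT library of PND0 was above all earlier ones, whereas the lowest KO library of PND0 lay among those of E16.5.

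**Figure D2:**
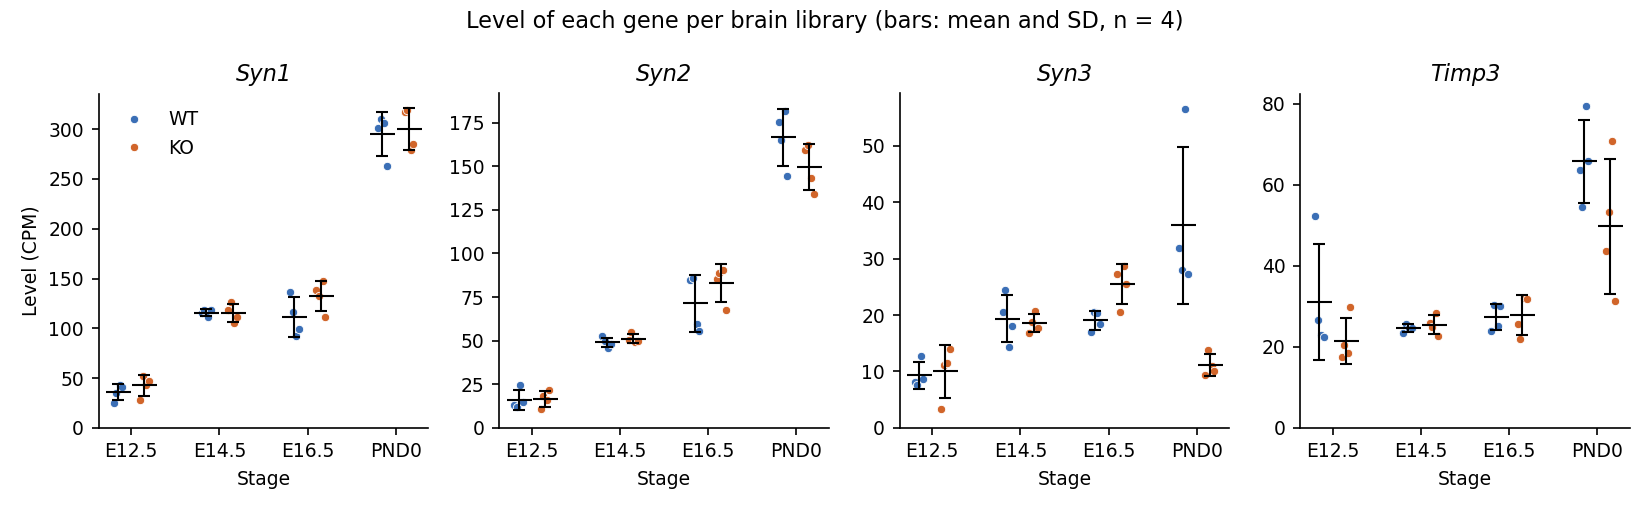
Level in CPM (linear axis from 0) of each gene in every library by stage, WT in blue and KO in orange, with the mean and SD of 4 libraries as black bars. Syn1 and Syn2 climb alike in both genotypes, Syn3 at PND0 has its 4 KO libraries between 9.337 and 13.83 CPM and its 4 WT libraries between 27.27 and 56.6 CPM, and Timp3 is highest at PND0.

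The stage steps were tested within each genotype, which the choice of the genes did not use, except that the steps of Syn3 into PND0 share their PND0 libraries with the contrast that did. Each stage was deposited as a table of its own, so stage and table cannot be told apart. In all, the share of genes with every later library above every earlier one was 27.2%, 24.9% and 24.4% at the 3 WT steps and 25.7%, 26.6% and 22.5% at the 3 KO steps. In whole tissue, more cells of a type and more RNA per cell cannot be told apart either. At the first WT step, E12.5 to E14.5, 3 of the 4 genes rose, against 27.3% of all genes tested. Syn1 rose by a log2 fold change of 1.66 ± 0.143 (SE; adjusted p = 2.57e-05), Syn2 by 1.59 ± 0.198 (0.000205) and Syn3 by 1.04 ± 0.198 (0.00157). Timp3 had a value of -0.36 (adjusted p = 0.276), which was 0.025 without WT replicate 1 of E12.5, the library at 52.44 CPM.

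At the second WT step, E14.5 to E16.5, only Syn2 of the 4 passed the test, against 29.3% of genes that rose, with 0.56 ± 0.149 (adjusted p = 0.0117). Syn1 had -0.04, Syn3 -0.01 and Timp3 0.17, with adjusted p-values of 0.786, 0.973 and 0.0953. Without E16.5 WT replicate 1, Syn1 had -0.166 (adjusted p = 0.0395) and Timp3 0.215 (0.0356). Into PND0 all 4 rose in WT, against 26.0% of genes. The log2 fold changes were 1.38 ± 0.110 for Syn1 (adjusted p = 4.32e-07), 1.19 ± 0.143 for Syn2 (3.36e-05), 0.88 ± 0.217 for Syn3 (0.00563) and 1.24 ± 0.117 for Timp3 (1.2e-06). Without WT replicate 3 of PND0 the mean of Syn3 at that stage was 28.98 CPM in place of 35.89 CPM. Over the leave-outs of 1 library its change ran from 0.58 to 0.996, past the threshold in each. These PND0 libraries were 1 arm of the contrast that chose Syn3, so this rise is no independent support.

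In KO, 3 of the 4 genes rose from E12.5 to E14.5, against 24.3% of genes. The changes were 1.43 ± 0.159 for Syn1 (adjusted p = 0.000152), 1.6 ± 0.171 for Syn2 (0.000132) and 0.87 ± 0.309 for Syn3 (0.038). The call for Syn3 was lost in 6 of 8 fits that left out 1 library, with adjusted p-values up to 0.0897: without E12.5 KO replicate 2 or 3, and without any 1 of the 4 KO replicates of E14.5. With no filter on low counts it was 0.141. Timp3 had 0.23 (adjusted p = 0.263), and 0.423 (0.00951) without E12.5 KO replicate 4. At the second KO step Syn2 rose by 0.71 ± 0.0826 (adjusted p = 2.82e-06) and Syn3 by 0.48 ± 0.0931 (0.0001), against 30.9% of genes. With all 32 libraries in 1 fit the adjusted p of Syn3 was 0.134. Syn1 had 0.21 (adjusted p = 0.0576), and its call moved past the threshold without E14.5 KO replicate 2 (0.0234) or E16.5 KO replicate 4 (3.65e-05), with no filter (0.000332), with DESeq2 (0.0156) and with the replicate block (0.0399). Timp3 had 0.15 (adjusted p = 0.247), and 0.240 (0.0299) without E16.5 KO replicate 2.

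From E16.5 to PND0 in KO, Syn1, Syn2 and Timp3 rose, against 23.3% of genes, and Syn3 fell, against 24.9% of genes. Syn1 rose by 1.16 ± 0.0854 (adjusted p = 6.7e-07), Syn2 by 0.83 ± 0.0989 (2.74e-05) and Timp3 by 0.82 ± 0.242 (0.0207). The call for Timp3 was lost without E16.5 KO replicate 1 (0.0586) or 2 (0.0548), and with no filter on low counts (0.0895). Syn3 fell by 1.23 on the log2 scale (SE 0.146, adjusted p = 1.92e-05), and no KO library of PND0 reached the lowest KO library of E16.5, as for 22.7% of genes. Over the leave-outs of 1 library its change ran from -1.355 to -1.138, past the threshold in each. The PND0 libraries of KO led to the choice of Syn3 for being low, so this fall is a description and supports nothing further. In WT the same step had gone up.

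Between genotypes, Syn3 at PND0 had a mean of 11.07 ± 1.96 CPM (SD, n = 4) in KO and of 35.89 ± 13.95 CPM in WT. The KO mean was 30.8% of the WT mean, or 3.24-fold lower, and the groups did not overlap. The log2 fold change was -1.70 ± 0.234 (SE), with the adjusted p of 0.00765 that led to its choice. At this stage 1.44% of genes passed the test, 1.03% lower in KO, and 5.84% had all KO libraries below the WT libraries. Nothing is read from these shares for Syn3. The next genes of the set were far outside the threshold: Syn2 had an adjusted p of 0.358 and Timp3 of 0.4. Without WT replicate 3 the log2 fold change of Syn3 was -1.399 (adjusted p = 0.00181). With the share of ribosomal RNA as a covariate it was -1.629 with an adjusted p of 0.544, in a fit in which 2 genes passed the test. That share ran from 1.8 to 2.78% in WT and from 1.16 to 2.09% in KO at PND0. It went partly with genotype, so this fit can tell the 2 apart only in part.

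Before birth Syn3 did not pass the test between genotypes. In the youngest brains, E12.5, the KO mean was 9.99 ± 4.622 CPM and the WT mean 9.285 ± 2.358 CPM (SD, n = 4 each), and at E14.5 they were 18.53 ± 1.629 and 19.38 ± 4.25 CPM. The libraries overlapped at both stages. At E16.5 the 4 KO libraries were all above the 4 WT libraries, with 25.52 ± 3.543 against 19.06 ± 1.708 CPM and a log2 fold change of 0.41 ± 0.104 (SE; adjusted p = 0.24). At that stage 3.60% of genes had KO libraries all above the WT libraries, and 0.0462% passed the test. With no filter on low counts the adjusted p was 0.00987, in a fit that called 233 genes in place of 8. The KO difference of Syn3 thus had opposite signs at E16.5 and PND0. Its change with stage over all 32 libraries had an adjusted p of 0.046, where 0.0256% of genes passed. That p was 0.0653 with no filter on low counts and 0.0636 with the replicate number as a block. It uses the same libraries as the choice of Syn3.

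Syn1, Syn2 and Timp3 did not pass the test between genotypes at any stage, and their libraries overlapped at each. For Syn1 the KO minus WT log2 fold changes were 0.23, 0.00, 0.24 and 0.02 from E12.5 to PND0, with SE of 0.211, 0.0438, 0.135 and 0.0765. For Syn2 they were 0.04, 0.06, 0.20 and -0.16, with SE of 0.264, 0.0528, 0.177 and 0.0886. At PND0 the mean of Syn1 was 300.2 ± 20.81 CPM in KO and 295.3 ± 21.78 CPM in WT (SD, n = 4), and that of Syn2 was 149.6 ± 13.19 and 166.6 ± 16.43 CPM. For Timp3 they were -0.55, 0.05, 0.01 and -0.41, with SE of 0.30, 0.0734, 0.125 and 0.232. The KO mean of Timp3 at PND0 was 75.6% of the WT mean, and its KO libraries ran from 31.21 to 70.77 CPM across the WT range of 54.57 to 79.4 CPM. Over the leave-outs of 1 library this change ran from -0.631 to -0.235, with adjusted p-values from 0.122 to 0.639. The signs of values near 0 turned in some fits: those of Syn2 at E12.5, Syn1 and Timp3 at E14.5, Timp3 at E16.5 and Syn1 at PND0.

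**Figure D3:**
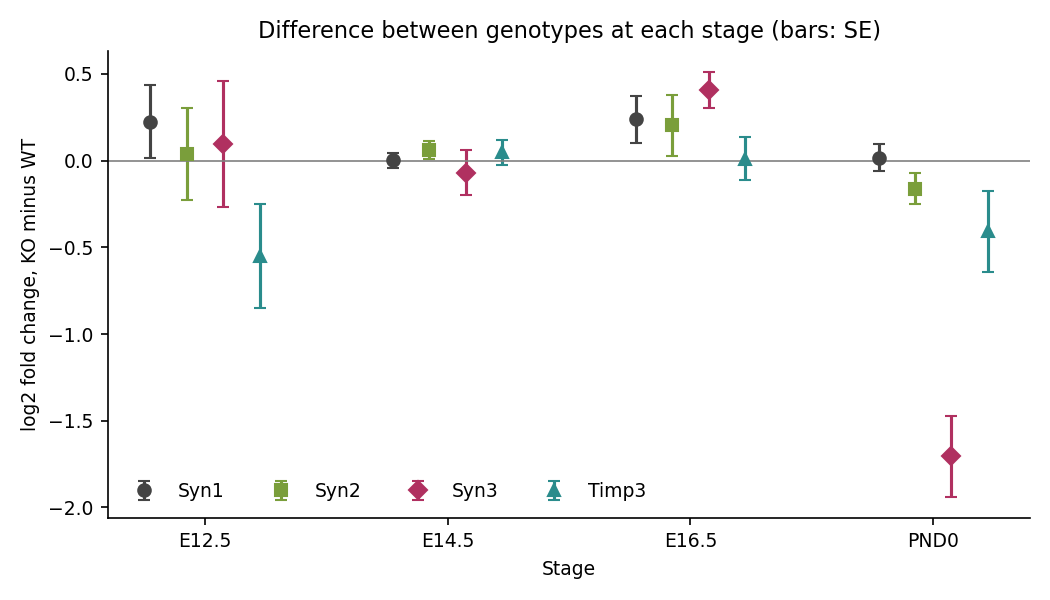
KO minus WT log2 fold change of each gene at each stage; points are the fitted values and bars their SE. The point of Syn3 at PND0, at -1.70, stands apart from the other 15, which lie between -0.55 and 0.41.

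Marker sums of other cell types and regions at PND0 stand beside the Syn3 values, and their part in the fall of Syn3 was not tested. The 14 hindbrain and spinal cord markers summed to 1.697 to 10.95 CPM in WT and to 0.2383 to 0.5789 CPM in KO, where the 12 Hox genes of the list were at 0 in all 4 libraries. By library, the WT sums were 1.697, 2.218, 5.811 and 10.95 CPM for replicates 1 to 4. At E16.5 the sums of this list ran from 0.538 to 17.43 CPM in WT and from 0.8732 to 10.82 CPM in KO. How much hindbrain each library held was not tested. The 6 blood cell markers summed to 196.6 to 261.3 CPM in WT and 228.5 to 2263 CPM in KO, with overlap. The 8 choroid plexus markers summed to 342.7 to 636.7 CPM in WT and 627.9 to 1016 CPM in KO, also with overlap, and no gene of either list passed the test. Neurons are the cells that carry synapsins, and their 8 markers summed to 7235 to 7794 CPM in KO and 6643 to 7401 CPM in WT. Of the 14 genes of the hindbrain list only 1, Slc6a5, a glycine transporter, passed the filter on low counts at PND0 and was tested. It passed the test with -3.14 ± 0.520 (adjusted p = 0.012), as did 1.44% of all genes.

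At E12.5 the outlying Timp3 value of 52.44 CPM in WT replicate 1 came with the highest sums of meningeal and fibroblast markers (3430 CPM, against 721.1 to 2825 CPM in the other libraries of that stage) and of hindbrain and spinal cord markers (39.06 CPM, against 2.254 to 16.11 CPM). Its neuron markers had the lowest sum, 3042 CPM. The part of these in the Timp3 value was not tested.

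Long genes were also compared at PND0. Over all 17107 genes with a length the median KO minus WT log2 fold change was -0.0 and 1.44% passed the test. Among 3972 genes whose longest transcript was within 20% of the length of that of Syn3, the median was -0.06 and 40 passed (1.01%). Among 536 genes with a span of at least 300 kb the median was -0.14 and 15 passed (2.8%). The median of genes with such a span was -0.01 at E12.5, 0.01 at E14.5 and 0.07 at E16.5. With offsets for transcript length the log2 fold change of Syn3 at PND0 was -1.63 (adjusted p = 0.0201), in a fit that called 47 genes in place of 250. These offsets did not use the span.

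Ratios within a library do not depend on scaling between libraries. At PND0 there were 9.48, 11.1, 5.41 and 9.63 Syn1 counts for each Syn3 count in WT and 33.9, 23, 25.4 and 28.1 in KO. The groups did not overlap. Timp3 counts per Syn3 count were 2, 1.96, 1.4 and 2.41 in WT and 4.68, 3.85, 6.43 and 3.08 in KO, again without overlap. These genotype differences follow from the choice of Syn3 and are given with no test.

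Over the stages the ratios were tested between E12.5 and PND0 by exact two-sided permutation tests, 6 in all, for which the smallest p that 4 against 4 libraries allow is 0.0286. In WT the log2 ratio of Syn1 to Syn3 rose by 1.156, from 1.95 ± 0.314 to 3.11 ± 0.458 (SD, n = 4; exact p = 0.0286, adjusted 0.0429). That of Syn2 to Syn3 rose by 1.517 (exact p = 0.0286, adjusted 0.0429). The WT libraries of PND0 were 1 arm of the contrast that chose Syn3. The adjustment over 6 ratios also counted the KO ratios, whose p-values that choice affects. The rise of both ratios in WT is therefore a description of these libraries and no independent support. Leaving out 1 library, adjusted exact p-values ran from 0.0429 to 0.0857 for the first ratio and to 0.0571 for the second. In KO the rises were 2.541 and 2.897, given without their p-values because the PND0 libraries chose Syn3 for being low. The Timp3 to Syn3 ratio changed by -0.7474 in WT (exact p = 0.171) and by 0.8653 in KO.

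**Figure D4:**
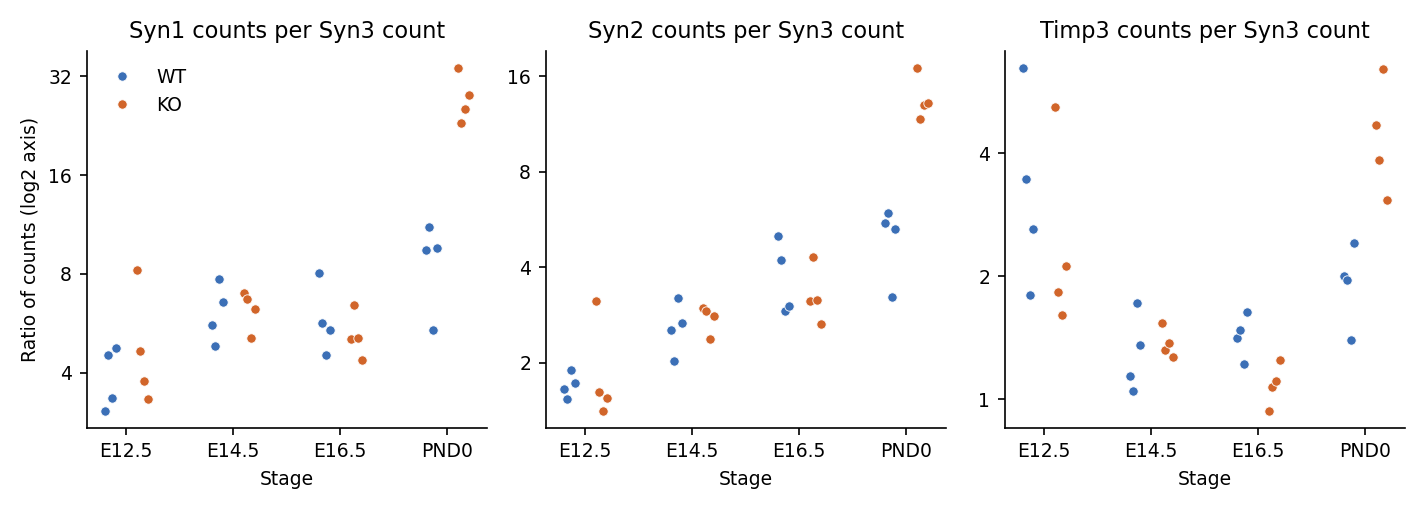
Counts of Syn1, Syn2 and Timp3 per Syn3 count in each library by stage (log2 axis), WT in blue and KO in orange. For Syn1 and Timp3 the KO libraries of PND0 lie above all WT libraries of that stage, at 23 to 33.9 against 5.41 to 11.1 for Syn1 and at 3.08 to 6.43 against 1.4 to 2.41 for Timp3.

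Levels can be compared between the genes only per length. Per kb of annotated exons, Syn1 was the most abundant synapsin in every group and Syn3 the least. In WT at PND0 the levels were 89.5 ± 6.60 CPM per kb for Syn1, 23.7 ± 2.34 for Syn2, 8.09 ± 1.26 for Timp3 and 2.92 ± 1.14 for Syn3 (SD, n = 4). Syn3 made up 5.474% of the synapsin total per kb in the earliest WT group, then 3.598% and 3.514%, and 2.494% at PND0. In KO it made up 4.815%, 3.466%, 3.867% and 0.7966%. The exons of Syn3 include many that few transcripts use. With the length of the longest transcript its share was 11.41% at E12.5 and 5.257% at PND0 in WT, and 10.21% and 1.741% in KO. The order of the synapsins was the same with both lengths, and the share of Syn3 was lower at PND0 than at E12.5 with both. Syn2 took 16.33% at E12.5 and 20.39% at PND0 in WT, and Syn1 78.2% and 77.11%.

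The TIMP genes within Syn1 and Syn2 had few counts. Timp1, in Syn1, was at 1.058 CPM in WT and 0.5334 CPM in KO at PND0, with libraries that did not overlap, as for 5.84% of genes lower in KO, and a log2 fold change of -0.98 ± 0.470 (adjusted p = 0.287). From E16.5 to PND0 in KO it fell by 1.84 on the log2 scale (adjusted p = 0.00205), where 24.9% of all genes fell. In WT the same step had -0.68 (adjusted p = 0.0645). The KO libraries of PND0 held only 3 to 17 counts of Timp1, down to the limit of 3 counts. Timp4, in Syn2, rose in WT at each step, by 1.25, 1.08 and 0.96 (adjusted p = 0.00681, 0.000322 and 0.00262). At PND0 it was at 7.502 CPM in KO and 10.96 CPM in WT (log2 fold change -0.55, adjusted p = 0.214). Timp2, which lies in no synapsin gene, rose from 148.2 to 376.0 CPM between E16.5 and PND0 in WT (1.31 ± 0.0830, adjusted p = 4.98e-08). At that step in WT 3 of 4 TIMP genes rose, against 26.0% of all genes.

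Other presynaptic genes rose over the same stages. Of 23 genes of synaptic vesicle proteins in the tables, 19, 14 and 16 rose at the 3 WT steps and none fell, where 27.3%, 29.3% and 26.0% of all genes rose. Their median log2 fold changes were 0.81, 0.40 and 0.67. Of 24 genes of the fusion machinery and active zone, 21, 13 and 22 rose, and 0, 3 and 1 fell. Dnm1, the dynamin of synaptic vesicle retrieval, rose by 1.23 at the last WT step (adjusted p = 1.91e-07). In KO, where 24.3%, 30.9% and 23.3% of all genes rose, 16, 18 and 18 vesicle genes rose and 1, 0 and 1 fell, and 19, 17 and 16 fusion genes rose and 0, 3 and 1 fell. Among 19 kinases and regulators of synapsins, 12, 9 and 11 rose in WT and 1, 4 and 2 fell, against the same WT shares of all genes that rose. For falling genes a share of all genes is given only for the last KO step, at 24.9%. Nothing is read from the numbers that fell in these lists. Rest, the repressor whose partial site lies before Syn1, fell from E16.5 to PND0. The log2 fold change was -1.02 in WT (adjusted p = 4.94e-06) and -1.14 in KO (2.07e-06). At the first and second step Rest had -1.30 (adjusted p = 0.00233) and 0.01 (0.931) in WT. In KO it had -0.66 (0.000282) and -0.11 (0.173). A link between Rest and Syn1 was not tested.

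Between genotypes at PND0, where 1.44% of all genes passed the test, no vesicle gene of 23 did, with a median log2 fold change of -0.06. The smallest p was that of Syt2, a calcium sensor of fast release, at -1.01 ± 0.264 (adjusted p = 0.0747). Of the 24 fusion and active zone genes 1 was lower, Erc1, a scaffold of the active zone, at -0.64 ± 0.0963 (adjusted p = 0.00631). With the ribosomal RNA covariate Erc1 had an adjusted p of 0.544. The median of that list was -0.08, where over all 17420 genes it was -0.0. None of the 19 kinases and regulators passed (median 0.02). At the share of 1.44% fewer than 1 call per list would come from lists of these sizes, so the counts are near the background. The marker sums given for Syn3 at PND0 stand beside these values too, and their part in them was not tested.

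**Figure D5:**
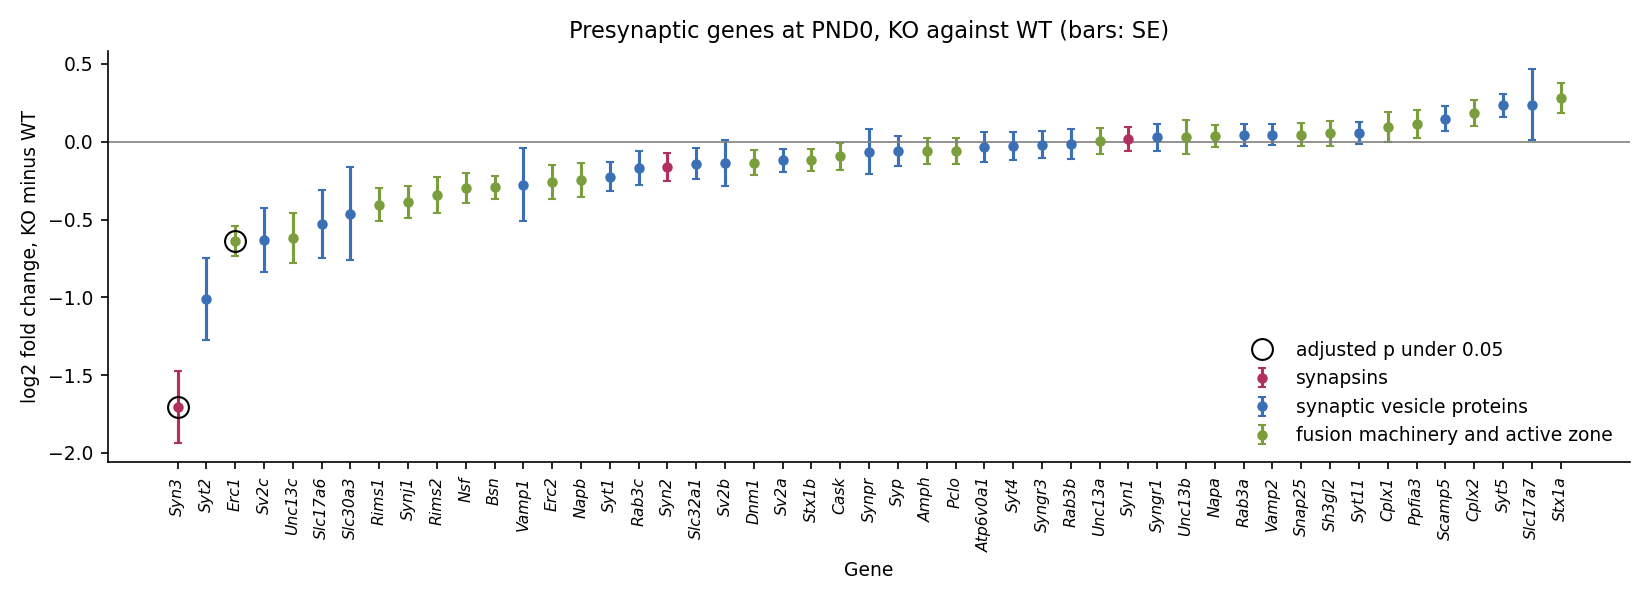
KO minus WT log2 fold change at PND0 (points; bars are SE) for the synapsins (magenta), synaptic vesicle proteins (blue) and fusion and active zone genes (green), ordered by value, with some list genes not drawn; rings mark an adjusted p under 0.05. Syn3 at -1.70 and Erc1 at -0.64 carry rings, and Syn1 and Syn2 lie near 0.

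At the other stages the same lists held 1 gene that passed between genotypes, Pclo, an active zone scaffold, at E14.5, with 0.30 ± 0.0537 (adjusted p = 0.00122; 0.527% of all genes passed there). In 1 fit of all 32 libraries it did not pass. At E12.5, where 0.0177% of genes passed, none did. Of 15 tested genes of TIMP3 targets and partners 1 passed at PND0, where 1.44% of all genes passed. Nothing is read from this 1 call for the list. It was Mmp9, a gelatinase that TIMP3 inhibits, higher in KO at 25.3 against 13.3 CPM (0.92 ± 0.161, adjusted p = 0.0155). That call was lost without WT replicate 3 (adjusted p = 0.055) and with the ribosomal RNA covariate (0.647). In WT, 4, 3 and 6 genes of this list rose at the 3 steps and 5, 9 and 3 fell, against 27.3%, 29.3% and 26.0% of all genes that rose. The numbers that rose at the first and second step were near or below those shares. No share of falling genes is set beside the numbers that fell, so nothing is read from those.

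The genes whose log2 CPM ran most like that of each member over the 32 libraries were taken from 16066 genes that averaged 1 CPM or more. For Syn1 they included Snph (Pearson r 0.995), Ctnnd2, Nrxn2 and Nlgn3 (0.992 each). For Syn2 they were Sprn and Spock2 (0.994), then Srsf12, Osbp2 and Slc8a3 (0.993). The likeness was lower for Syn3, with Marchf6 (0.914), Pcnx (0.905), Kidins220 (0.903) and Raph1 (0.898) among the closest. For Timp3 it was highest with Gng12 (0.942), followed by Serpine2 (0.89), Stom (0.889), Stim1 and Impact (0.884). These values describe shared courses over stages, libraries and depth, and carry no test.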

How the data were processed

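The authors deposited 1 table per stage of raw counts per gene symbol, not normalized; per the submitters' processing notes HISAT2, SAMtools, featureCounts, DESeq2 and build mm10 were used, with no versions or settings. The tables were joined by symbol over 32 libraries. For each comparison the 8 libraries involved entered a fit in edgeR 4.0.16 in R 4.3.3 (limma 3.58.1): TMM scaling, filterByExpr (minimum count 10, total 15), a robust quasi-likelihood fit and F test. P-values were Benjamini-Hochberg adjusted over all genes tested, with a threshold of 0.05, in each fit separately. The change of the KO difference with stage was an F test over 32 libraries. SE is the size of a log2 fold change divided by the square root of F. The counting limit given with the library totals covers counting error only, whereas SE and SD include the spread between libraries. Ratios used log2 of counts plus 0.5. Positions, exons and lengths came from GENCODE M21, which has 1 gene for 53186 of the symbols.

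The members, lists and markers were chosen with earlier results of these data known. Named genes are the members, Dhcr7, the other TIMP genes and, from each list, up to 3 members with the smallest p past the threshold or else the 1 with the smallest p; those described were taken from these, and the 5 genes most like each member were taken; some of these genes are not reported here. Alternatives were RLE size factors, no filter, DESeq2 1.42.0, each library left out, all 32 libraries in 1 fit, a replicate block, sex-gene and ribosomal RNA covariates, length offsets, a pseudocount of 5 and the longest transcript as length. The fitting was tested on simulated data. The composition markers of astrocytes, progenitors, endothelium and microglia had no gene past the threshold between genotypes at PND0.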

Additional observations from a re-analysis of the deposited data

Results flagged for a closer look

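Of 64 groups of 4 libraries (8 genes in 8 groups), 5 had a library whose gap to the nearest other was a large share of the group's range (by Dixon's test), where chance gives about 1 in 20. Syn3 was at 56.6 CPM in PND0 WT replicate 3, above the other 3 at 27.27 to 31.79 CPM. Timp3 was at 52.44 CPM in E12.5 WT replicate 1, above the other 3 at 22.49 to 26.63 CPM. Timp4 was at 1.991 CPM in E14.5 WT replicate 4, the lowest of its group. Dhcr7 was at 60.02 CPM in PND0 WT replicate 4 and at 11.45 CPM in PND0 KO replicate 2, the lowest of their groups.

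The KO difference changed with stage for Syn3 (adjusted p = 0.046, edgeR), from 0.41 at E16.5 to -1.70 at PND0 on the log2 scale. This uses the libraries that chose Syn3 and is no independent support. The adjusted p was 0.0653 with no filter on low counts and 0.0636 with the replicate block. All 4 KO libraries were above the WT libraries at the first stage and all 4 below at the second. For Dhcr7 the adjusted p was 0.0349, with log2 fold changes of -1.64, -2.40, -1.88 and -2.63 from E12.5 to PND0.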

How the results depend on the processing

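Syn3 at PND0 kept its direction in every alternative run and its call in all but the ribosomal RNA covariate. Counts of genes past the threshold between genotypes moved more. At E12.5 (3 genes) they were 30 with DESeq2, 6 with the replicate block and 52 with all 32 libraries in 1 fit. At E14.5 (94) they were 146 with no filter and 4 with all 32 libraries. At E16.5 (8) they were 233 with no filter, 168 with DESeq2, 5 with the block, 4 with the sex-gene covariate and 3 with all 32 libraries. At PND0 (250) they were 1091 with no filter, 921 with DESeq2, 47 with length offsets, 2 with the ribosomal RNA covariate and 1205 with all 32 libraries. For the change with stage (5) they were 11 with no filter, 344 with DESeq2 and 0 with the block (edgeR, 2707 at an unadjusted p under 0.05). The causes were not tested.

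Leaving out 1 library, the counts ran from 1 to 5 (E12.5), 52 to 155 (E14.5), 3 to 14 (E16.5) and, at PND0, from 35 (without WT replicate 3) to 263. The ratio changes ran from 1.033 to 1.379 (Syn1 to Syn3) and 1.422 to 1.716 (Syn2 to Syn3) in WT, and from -1.024 to -0.409 in WT and 0.676 to 1.238 in KO for Timp3 to Syn3. With the replicate block the ratios 1.156, 1.517, 2.541 and 2.897 were not past the threshold, since a sign-flip test of 4 pairs cannot go below 0.125. Replicate numbers did not pair the libraries: same-numbered deviations correlated from -0.271 to 0.379.

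Values near 0 that changed sign were, at E12.5, Syn2 with the sex-gene covariate (-0.040) and Syn3 with the block (-0.010) or that covariate (-0.039). At E14.5 Syn1 did so with no filter (-0.005), the block (-0.001), length offsets (-0.003) and all 32 libraries (-0.001). At E16.5 Timp3 did so with the sex-gene covariate (-0.005), length offsets (-0.011) and the ribosomal RNA covariate (-0.049). At PND0 Syn1 did so with length offsets (-0.000), and Syn3 at the second WT step with the block (0.013). Leaving out 1 library, KO minus WT values ran from -0.126 to 0.302 for Syn2 and -0.123 to 0.365 for Syn3 at E12.5. They ran from -0.186 to 0.067 for Syn3, -0.007 to 0.095 for Timp3 and -0.044 to 0.038 for Syn1 at E14.5, from -0.066 to 0.104 for Timp3 at E16.5 and from -0.028 to 0.05 for Syn1 at PND0. Among steps, Timp3 ran from -0.505 to 0.025 at the first WT step, and Syn3 from -0.127 to 0.124 and Syn1 from -0.166 to 0.04 at the second.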
